A study of Mus musculus with 4 samples.

Results

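A rule for lymphatic endothelial cells was applied to the transcripts of ChAT-eGFP+ cells from mouse inguinal fat. Of the 21249 cells that passed the filters 76 met it, and 10 of these lacked both lymphatic genes Prox1 and Mmrn1. Cells were eligible if they had over 200 but under 5000 genes detected and drew less than 7.5% of their unique molecular identifiers (UMIs, each a counted transcript molecule) from mitochondrial genes. The rule then asked for at least 1 UMI of Cldn5, at least 1 UMI of Mmrn1 or Tm4sf1, and none of Cd3e (T cells), Cd79a (B cells), C1qa (macrophages) and Dcn (fibroblasts). These cells are called gated cells here. Cldn5 encodes claudin-5, a tight junction protein of endothelium, Mmrn1 encodes multimerin-1, a secreted protein abundant in lymphatic endothelium, and Tm4sf1 encodes a membrane protein of endothelial cells. Because measured transcripts chose the cells, their difference from all other cells is given as a description without a test.

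Lymphatic capillaries of adipose tissue take up fluid, lipid and leukocytes, and collecting vessels with valves carry the lymph to lymph nodes, which lie within the inguinal fat pad. The transcription factor Prox1 specifies and maintains lymphatic identity, and the receptor tyrosine kinase VEGFR3, encoded by Flt4, receives the growth signal of VEGF-C. Capillary cells are known for Lyve1, Reln and Ccl21a, and valve and collecting vessel cells for Foxc2, Gata2 and Cldn11.

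The study profiled cells of male ChATBAC-eGFP mice, in which a bacterial artificial chromosome drives eGFP from the choline acetyltransferase locus, by 10x Genomics 3′ sequencing. From 5 weeks of age all mice were kept for 3 weeks at 30 °C (thermoneutrality). One group then stayed at 30 °C and the other was placed at 4 °C for 4 h after a day at room temperature, a step that the 30 °C group did not have. Each of the 4 libraries (2 per temperature) came from 4 pooled mice, so the spread between mice was averaged within a library, and live cells were sorted for eGFP, so a change in the reporter or in cell recovery cannot be told apart from a change in the tissue.

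The matrix of 30 °C replicate 1 held 6883 cells (76058112 UMIs) and that of 30 °C replicate 2 held 6881 (84317319 UMIs). Cold replicates 1 and 2 held 6272 (80973104 UMIs) and 6618 cells (84468931 UMIs). Of these 26654 cells, 5190, 5388, 5326 and 5345 passed the filters in the same order. Gated cells contributed 296413, 222581, 93744 and 162667 UMIs in this order too, so that the fewest molecules stood behind the values of 4 °C replicate 1. The median depth of a gated cell was 10295.5, 10637, 5703 and 12122.5 UMIs. Among all cells kept 51 barcodes occurred in more than 1 library, but 0 of these belonged to a gated cell, and the doublet caller Scrublet marked 489 of all cells kept (2.301%) but 0 of the gated cells.

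The rule drew most of its members from well inside its limits. Cldn5 was found in 148 cells, and 114 of these also had Mmrn1 or Tm4sf1. The 4 excluding genes removed 38 cells, of which 20 had Dcn, 18 had Cd79a, 6 had C1qa and 4 had Cd3e, and 19 of the 38 carried a single UMI of these genes. In the 76 gated cells the median was 18 UMIs of Cldn5 with a maximum of 71, and 1 cell had exactly 1 UMI and 2 cells had 2. Both Mmrn1 and Tm4sf1 were present in 57 gated cells, Mmrn1 alone in 5 and Tm4sf1 alone in 14. Counting only cells with none of the 4 excluding genes, 3 cells had Cldn5 but neither partner, none of them with Prox1. By the same count 2 cells had Mmrn1 but no Cldn5, 1 of them with Prox1.

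The label was then checked against Prox1, which the rule did not use, and against blood endothelial genes, and it held for most but not all of the cells. Prox1 was detected in 63 gated cells. Prox1 (chr1:190118035-190170714, minus strand, GRCm38) or Mmrn1 (chr6:60924976-60989378, plus strand) was detected in 66 gated cells, and 59 of these had both, although Mmrn1 is a gene of the rule. The remaining 10 gated cells had neither gene. All 10 held at least 2 of the 5 blood endothelial genes Flt1, Ly6c1, Rbp7, Vwf and Sox17, and 9 held at least 3. None of the 66 cells held 2 of them, and 15 held 1. By Prox1 alone, at least 2 of the 5 were held by 0 of the 63 cells with Prox1 and by 10 of the 13 without it. These 5 were picked from a list of 18 blood endothelial genes after their values had been seen, and other members were common in the 66 cells as well, with Plvap in 64 of them, Fabp4 in 55, Cd300lg in 46 and Nos3 in 39. The list as a whole summed to 8340 CPM (UMIs of the gene or list in 1000000 UMIs, both summed over cells) in the 66 cells and to 49236 CPM in the 10. Fabp4, a fatty acid carrier of capillary endothelium, was at 35487 CPM in the 10 cells and at 6686 CPM in the 66. Ly6c1 was found in all 10 cells with 257 UMIs in total, Flt1 (the VEGF receptor 1) in 8 with 110 UMIs and Rbp7, which binds retinol, in 8 with 214 UMIs. Flt4 gave 6 UMIs in 3 of the 10 cells, and Tbx1, Sema3d and Lyve1 were at 0 in them. The 10 cells are therefore called by their rule, cells with neither Prox1 nor Mmrn1, and the name lymphatic endothelial is kept for the 66.

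The 10 cells were unevenly spread over the libraries. They numbered 1 of 30 gated cells in 30 °C replicate 1, 3 of 21 in 30 °C replicate 2, 5 of 11 in 4 °C replicate 1 and 1 of 14 in 4 °C replicate 2. They held 59.0% of all gated UMIs in 4 °C replicate 1, against 14.96% in 30 °C replicate 2, 0.487% in 30 °C replicate 1 and 0.561% in 4 °C replicate 2. The summed level of the 18 blood endothelial genes, led by Fabp4, was 11403 and 11690 CPM in the gated cells at 30 °C and 32813 and 6947 CPM at 4 °C. Without the 10 cells it was 10842, 6783, 2838 and 6906 CPM in the same order. Library 4 °C replicate 1 thus stood apart in the gate, and without the 10 cells it rested on 6 cells and 38401 UMIs. The main comparisons are therefore given for all 76 gated cells and for the 66, a set chosen after its values had been seen.

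**Figure D1:**
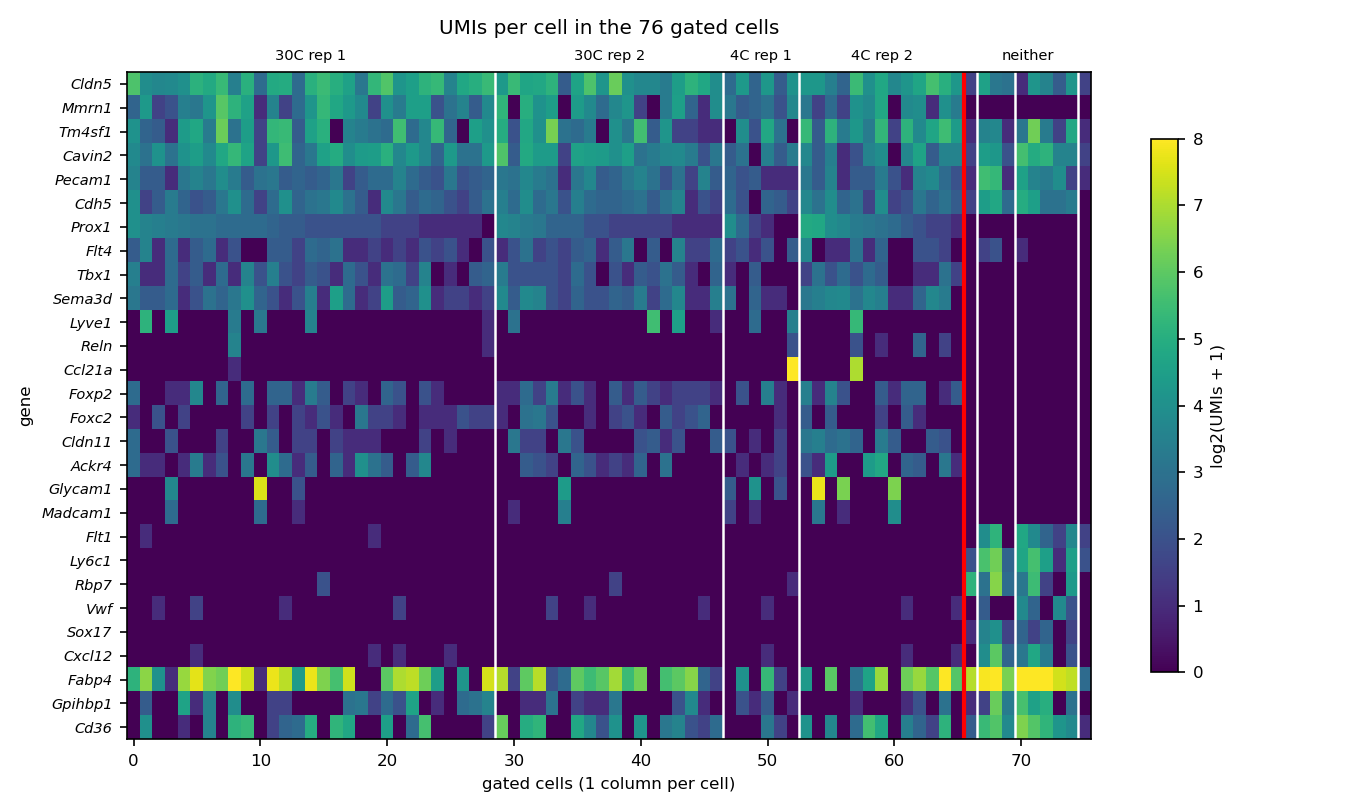
UMIs per cell on a log2(UMIs + 1) scale (colour) for 28 genes (vertical axis) in the 76 gated cells (horizontal axis, 1 column per cell). Left of the red line are the 66 cells with Prox1 or Mmrn1, grouped by library, and right of it the 10 cells with neither, in the same library order, where Flt1, Ly6c1, Rbp7 and Sox17 are seen and Sema3d, Tbx1, Foxp2, Foxc2 and Cldn11 are at 0.

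The gated cells carried a broad endothelial programme. Pecam1, the endothelial adhesion protein CD31, was found in 76 of 76 cells, Cdh5 (VE-cadherin) in 74, Egfl7 in 74, the caveolar protein gene Cavin2 in 74, the VEGF receptor 2 gene Kdr in 69 and the diaphragm protein gene Plvap in 70. Of the 18 endothelial genes listed, all were detected and 14 were found in at least 38 of the cells, with a summed level of 8116 CPM against 94.2 CPM in all other cells kept. Ptprc (CD45), the common leukocyte gene, was found in 2 gated cells with 2.58 CPM against 592 CPM in the other cells.

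Lymphatic genes were present in most but not all of the cells. Prox1 stood at 455 CPM in gated cells, 1.50 CPM in the other cells and 1.22 CPM in 98 stromal cells (at least 1 UMI of Dcn and of the collagen gene Col3a1, with none of Cd3e, Cd79a, C1qa or Cldn5). It was found in 63 gated cells, Sema3d in 63, Flt4 in 59 and the transcription factor Tbx1, which acts upstream of Flt4, in 56. Podoplanin (Pdpn) was found in 32 cells and the VEGF-C co-receptor Nrp2 in 32. The neurotensin gene Nts, which lymphatic endothelium is known to express, was found in 23 cells. Genes of the initial lymphatic capillary were less frequent, with Lyve1, the hyaluronan receptor, in 13 cells, Reln in 7 and the chemokine gene Ccl21a in 3.

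Among genes found in at least 38 gated cells and not used by the rule, the 20 with the highest level relative to all other cells, pooled over libraries of which those at 30 °C gave most cells, included Lcn2, which encodes the siderophore-binding protein lipocalin-2, at 970 CPM against 1.48 CPM. Its pooled level stands for unlike libraries, with 1501, 1132, 245 and 197 CPM in the gated cells (30 °C replicates first). The homeobox genes Hoxd10 (121 against 0.204 CPM) and Hoxd9 (222 against 0.617 CPM), expressed along the hindlimb and posterior trunk, were also among the 20, as was Meis2, a homeobox cofactor. Lymphatic or endothelial receptors in the same set were Flt4 (263 against 0.663 CPM), Kdr (762 against 2.40 CPM) and Gpr182 (259 against 0.886 CPM), an atypical chemokine receptor. Clca3a1, whose product is a surface antigen of lymphatic endothelium, was at 658 against 1.66 CPM and was detected in 66 cells. Tbx1, Prox1, Slc45a3, Btnl9, Nrxn2, Tgfa, Fxyd6, Sema3a, Gm11837, Rassf9, Gata6 and Galnt18 completed the 20.

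Within the 66 cells, of the valve and collecting vessel genes Foxc2 was detected in 37 cells, the tight junction gene Cldn11 in 35 and Gata2 in 33. Foxp2, which is not on that list, was detected in 47. Ackr4, a chemokine-scavenging receptor gene taken here from the list of lymph node lymphatic zones, was detected in 41. At least 1 of the capillary genes Lyve1, Reln and Ccl21a was found in 16 cells. Ackr4 was found in 2 of 13 cells with Lyve1 and in 39 of 53 without it. The 3 cells with Ccl21a all had Lyve1, Reln and Mmrn1, and none had Ackr4, Foxp2 or Foxc2.

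Of the 66 cells 10 carried Glycam1, a mucin-like ligand of L-selectin best known from high endothelial venules, with 627 UMIs in total. Of these 10, 9 had Prox1, 9 had the addressin gene Madcam1, 9 had the integrin gene Itga2b, 10 had Cldn11 and 3 had Coch. Madcam1, Itga2b and Coch are known from the lymphatic endothelium of lymph node sinuses. Chst4 and Fut7, enzymes of high endothelial venules, were at 0 in all gated cells. The Glycam1 cells had Fabp4 at 284 CPM against 7856 CPM in the 56 cells without Glycam1, Mmrn1 at 284 against 1355 CPM, and Lcn2 in 1 of 10 against 41 of 56 cells. Libraries 1 and 2 held 3 and 1 of them at 30 °C, and 3 each at 4 °C, where they were 3 of the 6 cells with Prox1 or Mmrn1 in 4 °C replicate 1. Marco, a scavenger receptor known from the medullary sinus, was found in 1 cell with 61 UMIs.

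Lipid genes were abundant in the gate. Fabp4 was found in 65 of 76 cells at 10066 CPM, against 1952 CPM in stromal cells and 134 CPM in the other cells. Cd36, the fatty acid translocase, was found in 49 cells at 1321 CPM. Gpihbp1, which anchors lipoprotein lipase to capillary endothelium, was found in 43 cells, 35 of them among the 66. Lpl, which encodes that lipase, stood at 91.6 CPM in gated cells against 2682 CPM in stromal cells.

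Most defining genes of other cell types were at or near 0, apart from Gsn, found in 41 gated cells, Igkc, found in 68, Ighm, found in 51, and Ebf1, found in 36. Fscn1 (81.2 CPM) and Itga2b (67.1 CPM) were exceptions too. All 6 mesothelial genes were at 0, and the adipocyte and red cell lists gave 1 UMI each. Of the 8 fibroblast genes Col1a2, Col3a1, Lum, Dpt and Pi16 were at 0, and the list summed to 102 CPM, led by Gsn, against 61754 CPM in stromal cells. The stromal cells had been chosen by Dcn and Col3a1, and the gated cells by the lack of Dcn, so this contrast is set in part by the rules. Of the 8 mural cell genes Acta2, Myh11, Pdgfrb, Cspg4 and Notch3 were at 0, and the list summed to 24.5 CPM. The platelet list had 6 of 8 genes at 0 and was led by Itga2b, and the T cell list summed to 39.98 CPM against 2262 CPM in the other cells. Of the 8 macrophage and dendritic cell genes 5 were detected, led by Fscn1, and the list summed to 95.4 CPM against 822 CPM in the other cells. Its genes Csf1r, Adgre1 and Flt3 were at 0, as was Cd8a of the T cell list. The B cell list summed to 635 CPM against 38323 CPM in the other cells and was led by Igkc, the immunoglobulin kappa constant gene, with 284 UMIs in 68 gated cells, which is 366 CPM against 30168 CPM in the other cells.

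Because the cells had been sorted for a reporter of Chat, the transcript of Chat (chr14:32408203-32465989, minus strand), which encodes the enzyme that makes acetylcholine, was counted in each library. It was found in 5 of 30 gated cells in 30 °C replicate 1, 0 of 21 in 30 °C replicate 2, 1 of 11 in 4 °C replicate 1 and 1 of 14 in 4 °C replicate 2. In all, 7 of 76 gated cells (9.21%, 95% Clopper-Pearson interval 3.78 to 18.1%) held 11 UMIs, and all 7 were among the 66. Intervals here cover counting error only. Stromal cells, sorted by the same reporter but taken as cells that should lack the gene, held it in 0 of 98, which allows a share of cells with a UMI of up to 3.06% (3 counts of the total), at a median depth of 9080.5 UMIs against 10301.5 in the gated cells. The stromal cells were shallower in 3 of the 4 libraries, and at 684 UMIs per cell, a depth that left out 18 stromal cells, Chat was found in 1 of 76 gated cells and 0 of 80 stromal cells.

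Free RNA from lysed cells was gauged with lymphocyte genes. Cd79b, Ms4a1, Cd3d, Cd3g and Trac together gave 16 UMIs in gated cells for 470283 in the other cells, or 0.0034%. Igkc gave 0.00436%, and Chat gave 0.0671% (11 UMIs for 16395). The rule had already removed every cell with Cd79a or Cd3e, so the lymphocyte values can understate free RNA and set no level for Chat. The Chat level was 14.2 CPM in the gated cells and 76.01 CPM in the other cells. The mean share of gated cells with Chat was 8.33% ± 11.8 (SD, n = 2 libraries) at 30 °C and 8.12% ± 1.38 (SD, n = 2) at 4 °C, and the groups overlapped (two-sided exact permutation test, p = 1.0). In the 66 cells the means were 8.62% and 12.2% (p = 1.0 by the same exact test), so that the direction depended on the gate.

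Of the 21 acetylcholine genes listed 11 were detected, and their sum was 312 CPM in gated cells against 175 CPM in the other cells. The list was led by Slc44a2, a choline transporter-like gene, in 46 gated cells at 132 CPM against 40.1 CPM in the other cells. Slc18a3, the vesicular acetylcholine transporter, gave 1 UMI and Ache, which encodes acetylcholinesterase, was found in 4 cells. The nicotinic subunit gene Chrnb1 was found in 22 gated cells and the muscarinic receptor genes Chrm3 and Chrm2 in 15 and 3 cells, each at 42.6, 25.8 and 3.87 CPM against 2.17, 0.185 and 0 CPM in the other cells.

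The gated cells were a smaller share of the cells kept at 4 °C in these libraries, a difference that the exact permutation test cannot call with 2 libraries against 2. The share was 0.578% (95% Clopper-Pearson interval 0.390 to 0.824%) and 0.390% (0.241 to 0.595%) in replicates 1 and 2 at 30 °C. It was 0.207% (0.103 to 0.369%) and 0.262% (0.143 to 0.439%) at 4 °C. The groups did not overlap, with means of 0.484% ± 0.133 (SD, n = 2) and 0.234% ± 0.0392 (SD, n = 2), a difference of -0.25 percentage points. The two-sided exact permutation test gave p = 0.333, the smallest that 2 libraries against 2 allow. With Prox1 or Mmrn1 required, the means were 0.446% and 0.178%.

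**Figure D2:**
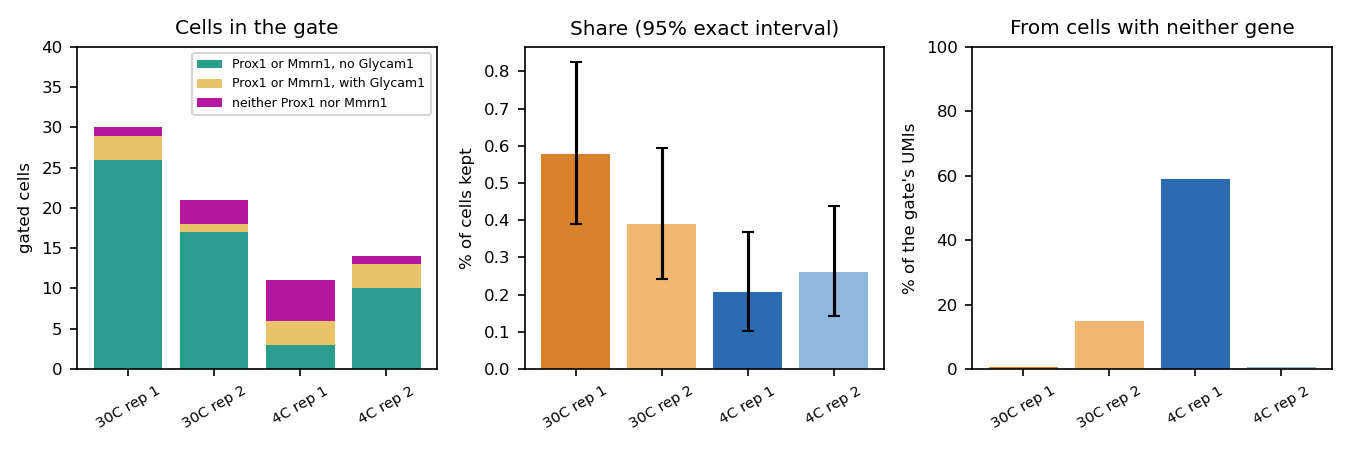
Bars give, for each of the 4 libraries, the gated cells by kind (left, cells), the share of kept cells in the gate with its 95% exact binomial interval (middle, percent) and the share of gated UMIs from cells with neither Prox1 nor Mmrn1 (right, percent). The gate held 30, 21, 11 and 14 cells, and cells with neither gene gave 59.0% of the UMIs in 4 °C replicate 1.

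To ask what 4 h of cold changed, UMIs of the gated cells were summed per library and compared by the quasi-likelihood test of edgeR, and p-values were adjusted over every gene tested (Benjamini-Hochberg). A log2 fold change above 0 means a higher level in the cold. Over all 76 cells, 0 of 3649 genes tested (0%) passed an adjusted p of 0.05. At an unadjusted p under 0.05 there were 266 genes (7.29%), of which 102 (2.8%) were higher and 164 (4.49%) lower at 4 °C, and DESeq2 called 5. The lowest adjusted p was 0.0688 and was shared by Angptl4, Lcn2, Adamts1 and Ccl21a. Under TMM scaling, which itself centres the fold changes, the median log2 fold change of all genes was 0.02.

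In the 66 cells with Prox1 or Mmrn1, 14 of 3239 genes (0.432%) passed, 3 of them higher (0.0926%) and 11 lower (0.34%) in the cold. An unadjusted p under 0.05 was reached by 309 genes (9.54%), by 3.58% upwards and by 5.96% downwards. All 14 had the same sign in the 76 cells, where the values of the groups did not overlap and each had an unadjusted p under 0.05. The 66 cells are part of the 76, so this is no separate support. Of all genes tested in the 76 cells, 18.5% were higher and 19.5% lower at 4 °C without overlap. In the 66 cells these shares were 20.3% and 20.9%. The genes that fell included the transcription factors Klf2, Klf3 and Cebpb, the secreted proteins Adamts1, Angptl4, Lcn2, Plat and Pglyrp1, and the signalling proteins Errfi1 and Tsc22d3, together with the heat shock gene Hspa1b. Bmp2, Ltb and Ccl21a rose.

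Adamts1 (chr16:85793827-85803113, minus strand), which encodes a secreted metalloprotease that cleaves versican, was at 1026 and 813 CPM in the 76 gated cells at 30 °C and at 160 and 148 CPM at 4 °C. Without the 10 cells it was at 1031 and 803 CPM and at 104 and 136 CPM. The groups stood well apart with and without them. Its log2 fold change was -2.87 (SE 0.33, edgeR adjusted p = 0.00167) in the 66 cells and -2.57 (SE 0.27, adjusted p = 0.0688) in the 76. UMIs of Adamts1 were found in 36 of 47 cells at 30 °C and 7 of 19 at 4 °C. The Glycam1 cells, 4 of the 47 and 6 of the 19, mostly lacked it, and among the cells without Glycam1 it was found in 35 of 43 and 6 of 13.

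Klf2 (chr8:72319033-72321656, plus strand), a flow-responsive transcription factor of quiescent endothelium, was at 3063 and 2817 CPM at 30 °C and at 1387 and 1088 CPM at 4 °C in the 76 cells. Without the 10 cells it was at 3072, 2948, 755 and 1076 CPM in the same order. Neither set overlapped between temperatures. Its log2 fold change in the 66 cells was -1.69 (SE 0.20, edgeR adjusted p = 0.00167). Klf3, a related repressor, was at 310 and 409 CPM at 30 °C and at 107 and 61.5 CPM at 4 °C in the 76 cells, and in the 66 it fell by 2.88 on the log2 scale (SE 0.49, adjusted p = 0.0287).

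Angptl4 (chr17:33773750-33781830, minus strand), an inhibitor of lipoprotein lipase, was at 874 and 705 CPM at 30 °C and at 85.3 and 92.2 CPM at 4 °C in the 76 cells. In the 66 cells it was at 878 and 660 CPM at 30 °C, and at 4 °C it had 0 UMIs in replicate 1 and 92.7 CPM in replicate 2. It was found in 43 of 47 cells at 30 °C and in 5 of 19 at 4 °C, and among the cells without Glycam1 in 39 of 43 and 5 of 13. The log2 fold change was -3.46 (SE 0.47, edgeR adjusted p = 0.00451) in the 66 cells.

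Cebpb, a leucine zipper transcription factor of acute and metabolic responses, was at 1177 and 1554 CPM at 30 °C and at 139 and 363 CPM at 4 °C in the 76 cells, with no overlap. Its log2 fold change in the 66 cells was -2.21 (SE 0.30, edgeR adjusted p = 0.00451). Lcn2 (chr2:32384633-32388252, minus strand) was at 1501 and 1132 CPM at 30 °C and at 245 and 197 CPM at 4 °C in the 76 cells. Among the 66 cells it was at 1509, 1168, 599 and 198 CPM, a log2 fold change of -2.05 (SE 0.39, adjusted p = 0.0434). Cells with Glycam1, which were 4 of 47 cells at 30 °C and 6 of 19 at 4 °C, mostly lacked Lcn2.

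Of the remaining genes that fell, Errfi1, a feedback inhibitor of the EGF receptor, was at 361 and 297 CPM at 30 °C and at 42.7 and 79.9 CPM at 4 °C in the 76 cells, and had a log2 fold change of -2.25 in the 66 (adjusted p = 0.0277). Plat, the tissue plasminogen activator, was at 466 and 454 CPM at 30 °C and at 10.7 and 141 CPM at 4 °C (-2.15, adjusted p = 0.0434). Tsc22d3, the glucocorticoid-induced leucine zipper, was at 256 and 332 CPM and at 74.7 and 67.6 CPM (-2.16, adjusted p = 0.0434). All 3 were apart between temperatures in both sets of cells. Pglyrp1, a peptidoglycan recognition protein, had a log2 fold change of -2.01 (adjusted p = 0.0434). Hspa1b had one of -2.35 (adjusted p = 0.0411), but its reads cannot be parted with certainty from its near-identical neighbour Hspa1a, which was at 50.6, 103, 64.0 and 0 CPM in the 76 cells.

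Bmp2 (chr2:133552159-133562885, plus strand), a ligand of the BMP family, was at 64.1 and 58.4 CPM at 30 °C and at 203 and 246 CPM at 4 °C in the 76 cells, and at 64.4, 68.7, 495 and 247 CPM in the 66. The groups were apart in both, with a log2 fold change of 2.24 (SE 0.41, edgeR adjusted p = 0.0411) in the 66. It was found in 10 of 47 cells at 30 °C and 6 of 19 at 4 °C, and 1 cell held 22 of the 59 UMIs at 4 °C. All 59 were in the 6 Glycam1 cells, as were 23 of the 32 UMIs at 30 °C in the 4 there. Ltb, lymphotoxin beta, was at 84.3 and 117 CPM at 30 °C and at 203 and 344 CPM at 4 °C in the 76 cells, with a log2 fold change of 1.84 (SE 0.35, adjusted p = 0.0434) in the 66. Of its UMIs in the 66 cells, the Glycam1 cells held 62 at 4 °C and the others 13.

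Ccl21a (chr4:42772860-42773993, minus strand), the CCR7 ligand that draws dendritic cells into lymphatic capillaries, passed the test on the strength of single cells. Its UMIs numbered 1, 0, 258 and 127 in the 4 libraries (30 °C first), and those of each cold library came from 1 cell. The ratio of 4 °C to 30 °C was 779 with an exact 95% counting interval of 139 to 30858. This interval takes UMIs as independent and covers no spread between cells, mice or libraries. Over all deposited cells, gated or not, the UMIs numbered 232, 26, 424 and 132 in the same order. In 30 °C replicate 1, cells with 5000 genes or more, which the filters removed, held 229 Ccl21a UMIs, and the 1 of them with more than 5 also had Mmrn1. The mouse genome holds near-identical copies of this gene, and every UMI was assigned to this one.

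**Figure D3:**
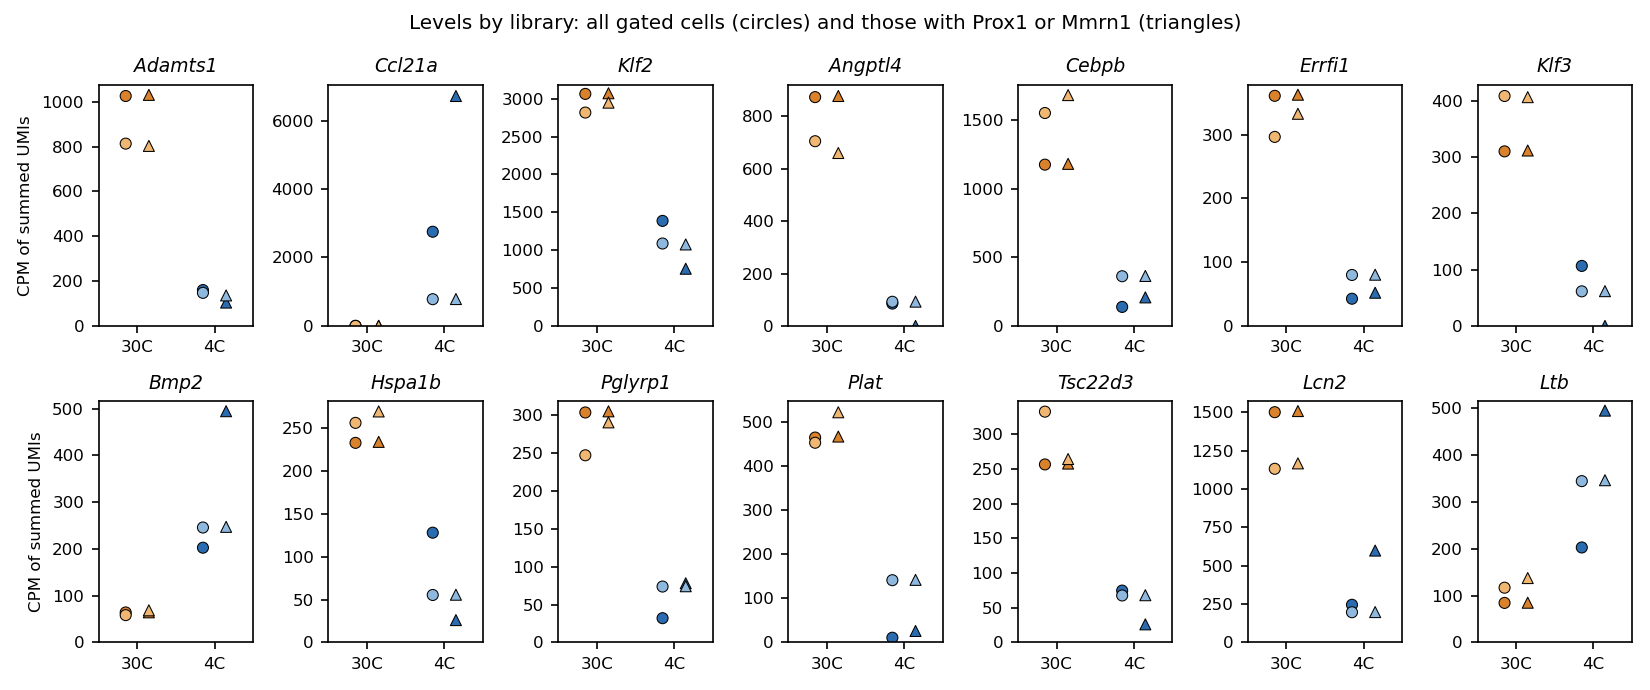
CPM of summed UMIs (vertical axes, each with its own scale) at 30 °C (orange) and 4 °C (blue) for the 14 genes that passed in the cells with Prox1 or Mmrn1, 1 point per library with replicate 1 in the darker shade. Circles give all 76 gated cells and triangles the 66 with Prox1 or Mmrn1, and for each gene the values of the temperatures lie apart in both.

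The values of these genes rested on few cells, and 4 °C replicate 1 gave only 6 of the 66. All 14 fold changes kept their sign under every other setting in which the gene could be fitted, which leaves out Ccl21a without each gene's top cell, and Bmp2 without the Glycam1 cells and in the stricter gate. But without the 10 Glycam1 cells 0 genes passed edgeR's test (194 at an unadjusted p under 0.05). Of the 13 genes that could then be fitted, 11 kept an unadjusted p under 0.05, with log2 fold changes of -2.50 (SE 0.35) for Adamts1, -1.60 (SE 0.34) for Klf2 and -1.87 (SE 0.32) for Cebpb, whereas Lcn2 (-1.29, SE 0.64) and Ltb (0.80, SE 0.76) did not. Without 30 °C replicate 2 likewise 0 genes passed (113 at that level). DESeq2 called 4 in the 66 cells.

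Of the genes known to respond to glucocorticoids, 13 of those tested had a fold change below 0 in the 76 cells and in the 66 among them. The list was chosen with earlier results of these data known. Of 18 listed genes 16 were tested in the 76 cells, where 0 passed by edgeR and 11 were lower without overlap (19.5% of all genes were). At an unadjusted p under 0.05, 9 were lower and 0 higher (4.49% and 2.8% of all genes). Their median log2 fold change was -1.41 against 0.02 over all genes. Among the 66, Tsc22d3 and Errfi1 passed as lower (0.34% of all genes did), and the median was -1.71 against -0.0008 over all genes. At an unadjusted p under 0.05, 10 were lower and 1 (Sgk1, with overlap) higher (5.96% and 3.58% of all genes). Fkbp5 (chr17:28399094-28517527, minus strand), a co-chaperone of the glucocorticoid receptor, was at 202 and 270 CPM at 30 °C and at 32.0 and 49.2 CPM at 4 °C in the 76 cells, apart between temperatures. Its log2 fold change was -2.45 (SE 0.39, adjusted p = 0.283) there and -2.04 (SE 0.44, adjusted p = 0.0854) in the 66 cells. Zbtb16, a zinc finger repressor, was at 67.5, 80.9, 0 and 12.3 CPM, and Per1, a clock gene, at 67.5, 135, 0 and 18.4 CPM. Nr3c1, which encodes the receptor, was at 111, 108, 203 and 79.9 CPM, with overlapping groups.

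Of 22 immediate early genes 17 were tested in the 76 cells, with 0 passing by edgeR, 6 lower and 0 higher at an unadjusted p under 0.05 (4.49% and 2.8% of all genes were), and a median log2 fold change of -0.45. With the 10 cells left out, Klf2 passed, 6 were lower and 1 (Nr4a1, with overlap) higher at that level (5.96% and 3.58% of all genes), and the median was -0.48. Jun was at 2065 and 2246 CPM at 30 °C and at 1365 and 1039 CPM at 4 °C in the 76 cells, a log2 fold change of -0.83 (SE 0.20, adjusted p = 0.434). Fos was at 2483, 3006, 1163 and 3025 CPM with overlapping groups, which overlapped in the 66 cells too (-0.19, SE 0.23). Dusp1, which inactivates MAP kinases and belongs to both lists, was at 1619, 1797, 523 and 928 CPM.

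**Figure D4:**
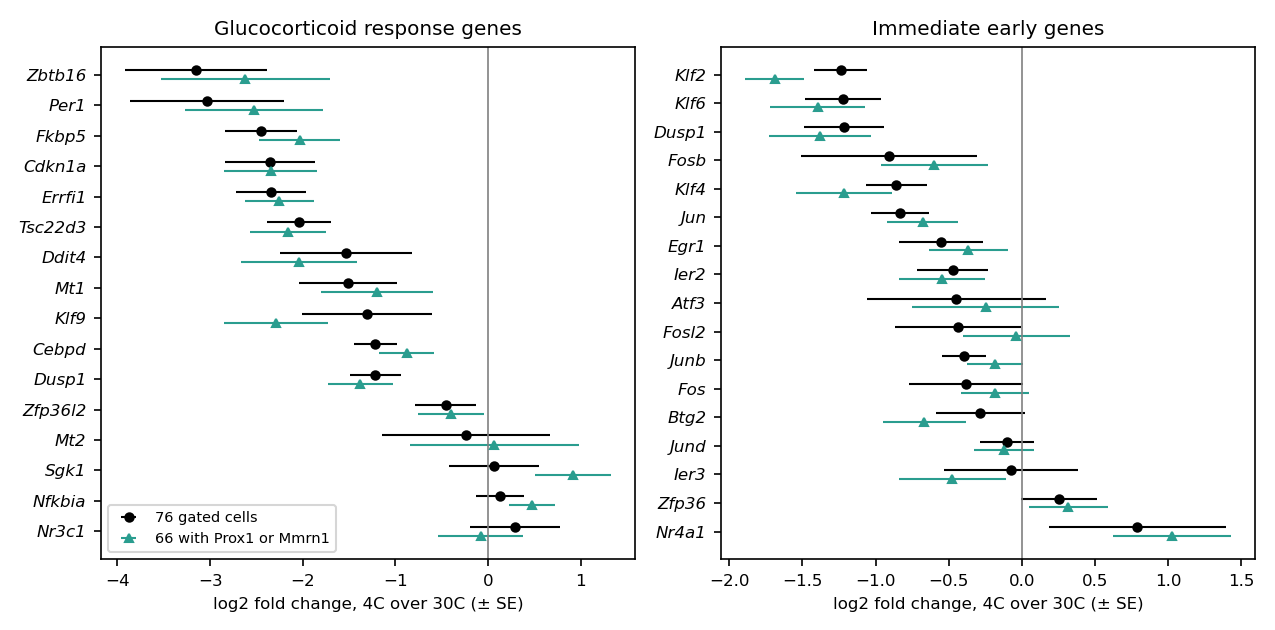
Log2 fold change of 4 °C over 30 °C (horizontal axes, points, with bars of 1 SE) for the tested glucocorticoid response genes (left) and immediate early genes (right) in all 76 gated cells (black circles) and in the 66 with Prox1 or Mmrn1 (green triangles). Left of the line at 0 lie 13 of 16 glucocorticoid response genes and 15 of 17 immediate early genes in each set of cells, the 66 being part of the 76. The median over all genes tested was 0.02 in the 76 cells and -0.0008 in the 66.

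Of 13 listed genes of heat and cold shock 12 were tested in the 76 cells, and the median log2 fold change was -0.20. At an unadjusted p under 0.05, 1 (Hspa1b) was lower, as were 4.49% of all genes. In the 66 cells 11 were tested, Hspa1b passed, and the median was -0.13. Hspb1, a small heat shock protein gene, was also lower there at an unadjusted p under 0.05 (-1.11, SE 0.40), as were 5.96% of all genes. Its direction turned in the 76 cells (0.23, SE 0.56), where the groups overlapped (320, 562, 779 and 258 CPM). The cold-inducible RNA-binding genes Cirbp and Rbm3 had log2 fold changes of 0.07 (SE 0.30) and -0.47 (SE 0.25), neither past the threshold in edgeR's test. Cirbp was at 172, 153, 181 and 160 CPM, within one range at both temperatures. Rbm3 was at 698, 544, 416 and 473 CPM, lower at 4 °C without overlap, as it was in the 66 cells (698, 544, 469 and 476 CPM).

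The lymphatic genes themselves gave 1 member past the threshold in the 66 cells, Ccl21a, among 12 tested of 14 (0.0926% of all genes passed as higher). Pdpn was also higher at an unadjusted p under 0.05 (3.58% of all genes were). Prox1 reached that level too, but it had helped choose these cells and is not counted as a change. Their median log2 fold change was -0.42 in the 76 cells and -0.03 in the 66. Prox1 was at 449, 337, 245 and 750 CPM in the 76 cells with overlap (0.36, SE 0.49, edgeR adjusted p = 0.933). It was at 451, 396, 599 and 754 CPM in the 66, with the same UMIs as in the 76 (133, 75, 23 and 122). As Prox1 helped choose the 66 cells, its separation there is no test of a change. Pdpn was at 64.1, 49.4, 53.3 and 197 CPM in the 76 cells with overlap, and at 64.4, 58.1, 130 and 198 CPM in the 66 without overlap (1.51, SE 0.39, edgeR adjusted p = 0.147). Flt4 was at 287, 314, 149 and 215 CPM in the 76 cells without overlap, and at 288, 343, 339 and 216 CPM in the 66 with overlap. Of the 13 genes of VEGFR3 signalling 8 were tested in the 66 cells and 0 passed or had an unadjusted p under 0.05. Of the 10 valve and collecting vessel genes 8 were tested there and 0 passed by edgeR. At an unadjusted p under 0.05 Cldn11 was higher (with overlapping groups) and Foxc2 and Gata2 lower (3.58% and 5.96% of all genes).

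The medians of blood endothelial and lipid genes changed sign with the 10 cells. The median log2 fold change of the tested blood endothelial genes was 0.34 in the 76 cells (11 tested) and -0.95 in the 66 (5 tested). Fabp4 was at 9396, 7719, 25506 and 5600 CPM in the 76 cells, and at 8974, 5103, 1510 and 5595 CPM in the 66, overlapping in both. The 16 lipid handling genes had a median of 0.41 in the 76 cells (11 tested) and -0.69 in the 66 (9 tested), where Angptl4 was the member that passed. Interferon-stimulated genes had a median of 0.47 in the 76 cells and 0.03 in the 66, with 0 passing by edgeR in either set. Irf1 and Stat2, of 10 tested, were higher in the 76 cells at an unadjusted p under 0.05 (2.8% of all genes were). The 27 genes of leukocyte traffic included 15 that were tested in the 66 cells, of which Ccl21a passed (0.0926% of all genes passed as higher). Ccl2, Madcam1 and Csf1 were also higher at an unadjusted p under 0.05 (3.58% of all genes were), Ccl2 with overlapping groups (34, 0, 1 and 62 UMIs). Csf1 overlapped between temperatures in the 76 cells.

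To ask whether the gated cells changed differently from the rest of the same libraries, a term for cell group by temperature was fitted over 8 sums per gene, with the library as a factor. It passed for 36 of 14311 genes (0.252%), positive for 11 (0.0769%) and negative for 25 (0.175%), where a negative term means that the change at 4 °C was lower in the gated cells, and 601 (4.2%) had an unadjusted p under 0.05. With the 66 cells 11 genes passed, and 9 were called in both: Angptl4, Ccl21a, Ccl5, Cdkn1a, Cebpb, Gdf15, Klf2, Klf3 and Pglyrp1. Of the 14 genes that passed within the 66 cells, 8 were also among the 36. Errfi1 and Plat, which belong to these 8, did not pass when the term was fitted with the 66 cells (edgeR adjusted p = 0.109 and 0.132).

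Klf2, Klf3 and Cebpb, which fell in the 66 cells, changed less in all other cells kept. The change in mean log2 CPM was -1.25 for Klf2 in gated cells and -0.14 in the other cells, a fitted difference of -1.13 (SE 0.25, edgeR adjusted p = 0.00375). For Cebpb the changes were -2.53 and -0.31, a difference of -2.13 (SE 0.33, adjusted p = 2.57e-07). For Klf3 they were -2.00 and -0.09, a difference of -2.07 (SE 0.45, adjusted p = 0.00324). Against the stromal cells, where the changes were -0.75 for Klf2, -0.52 for Cebpb and -0.11 for Klf3, none of the 3 differences passed (-0.46, -2.00 and -2.00, edgeR adjusted p = 0.978, 0.917 and 0.891). Jun and Fos went opposite ways in these values, with -0.85 and -0.54 in gated cells and 0.46 and 0.59 in the other cells (differences of -1.32 and -1.10, adjusted p = 0.000768 and 0.00586). With the 66 cells the differences of Jun and Fos were -1.33 and -1.01 and did not pass (edgeR adjusted p = 0.175 and 0.742). Of 21 immediate early genes tested, 7 were negative and 0 positive (0.175% and 0.0769% of all genes), and with the 66 cells 1 (Klf2) was negative.

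The glucocorticoid response genes divided in this comparison. Errfi1, Cdkn1a and Dusp1 were negative, 3 of 18 tested, and 0 were positive (0.175% and 0.0769% of all genes). With the 66 cells Cdkn1a passed, whereas Errfi1 and Dusp1 did not (edgeR adjusted p = 0.109 for each, with a difference of -2.03 for Errfi1 and a smaller negative one for Dusp1). The change in mean log2 CPM of Fkbp5 was -2.28 in gated cells and -1.98 in the other cells, a difference of -0.47 in edgeR's fit (adjusted p = 1.0). It was -1.89 and -1.66 for Tsc22d3, and -2.46 and -1.95 for Zbtb16. For these 3 genes the values were lower at 4 °C in both groups of cells. For Lcn2 it was -2.51 in the gated cells and -3.28 in the others. Lcn2 was found in only 0.203% of the other cells, at 1.48 CPM. These include the 38 cells that the excluding genes removed, and their part in this value was not tested.

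**Figure D5:**
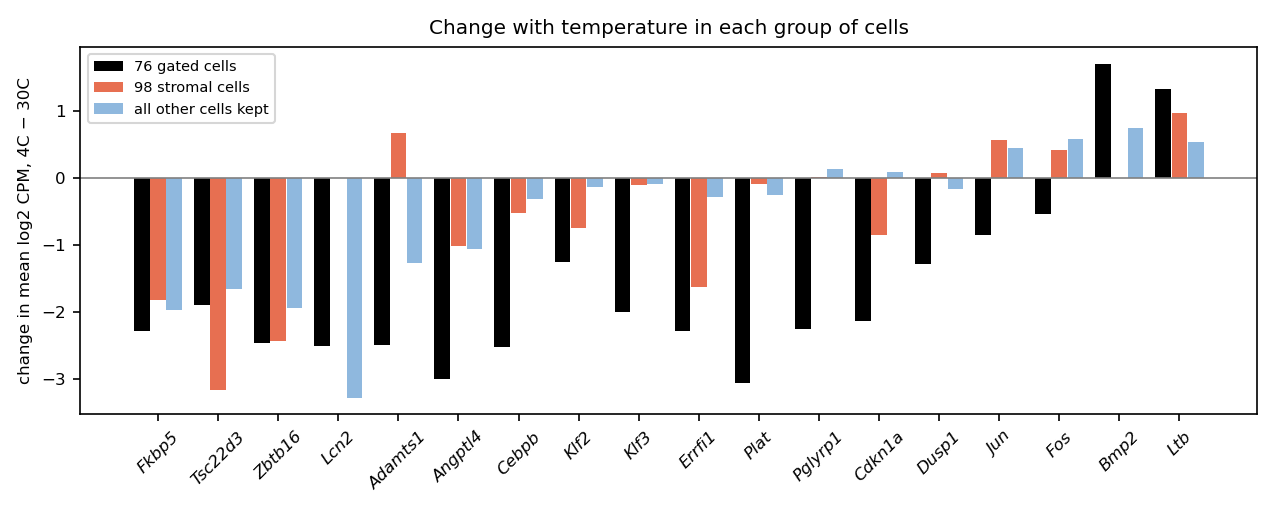
Change in mean log2 CPM from 30 °C to 4 °C (vertical axis) for 18 genes in the 76 gated cells (black), the 98 stromal cells (red, no bar where under 10 UMIs were counted) and all other cells kept (blue), without error bars as each bar is a difference of means of 2 libraries. Fkbp5, Tsc22d3 and Zbtb16 are lower at 4 °C in all 3 groups, whereas Jun and Fos lie below 0 in the gated cells and above 0 in the others, a difference that did not pass with the 66 cells.

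Several of the largest terms came from few cells or from the 10 cells with neither Prox1 nor Mmrn1. These held 120 of the 134 Aqp1 UMIs at 4 °C, 214 of 220 Rbp7 UMIs and 164 of 168 Rgcc UMIs, and without them these genes did not pass. Of 29 Ccl5 UMIs 23 were in 1 cell, and of 236 Gdf15 UMIs at 4 °C 235 were in 1 cell.

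Against the 98 stromal cells, the other non-immune cells of the sort, the same term passed for 1 of 4235 genes (0.0236%), and 216 (5.1%) had an unadjusted p under 0.05. That gene was Fabp4. Its UMIs in gated cells were 2785, 1718, 2391 and 911 (30 °C replicates 1 and 2, then 4 °C replicates 1 and 2), and in stromal cells 697, 709, 164 and 34. Stromal values were thus lower in the cold in both replicates, and gated values overlapped. The change in mean log2 CPM was 0.49 in gated cells and -3.67 in stromal cells, a difference of 4.26 (SE 0.36, edgeR adjusted p = 0.0068). With Mmrn1 required no gene passed this comparison, so the call depended on the gate. With the 66 cells the difference was 2.41 (SE 0.44, adjusted p = 0.0106), so it was smaller but past the threshold without the 10 cells. The direction in the gated cells turned, however, since the 10 cells held 2333 of the 2391 Fabp4 UMIs in 4 °C replicate 1. In the 66 cells alone the log2 fold change of Fabp4 was -0.95 (SE 0.40, edgeR adjusted p = 0.455), and its term against all other cells was 1.68 with the 76 cells and -0.23 with the 66 (adjusted p = 1.0). Stromal cells differed in depth between temperatures, with a median of 2000.5 UMIs at 30 °C and 11842 at 4 °C, and the part of this in the difference was not tested.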

How the data were processed

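UMI counts per gene and cell were deposited by the authors, made with STAR and Cell Ranger (3.0.0 in the file headers, 3.1.0 in the labels) on mm10 (GRCm38), without normalization, in 4 libraries and 31053 genes. Cells were filtered by the study's limits and gated as stated, and the members, gene lists and tests were chosen with earlier results of these data known. UMIs were summed per library. Sums were tested with edgeR 4.0.16 (TMM, edgeR's filter on low counts, quasi-likelihood test, Benjamini-Hochberg, threshold 0.05), with DESeq2 1.42.0 under R 4.3.3 as an alternative, and shares with scipy 1.17.1 by exact permutation. Libraries are separate biological replicates of pooled mice. Scrublet (scanpy 1.11.5) served for doublets. Gene positions are from GENCODE M21. Procedures were tested on simulated data. Results for some genes were left out here.

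Genes named are up to 10 of the largest changes each way past the threshold whose sign held for every pair of a cold and a 30 °C library, the members of each list that passed or had the highest CPM, the 20 identity genes, the genes of the rule and Chat, and the 5 largest terms each way. Cell subsets (Glycam1, Lyve1, Ccl21a), and the genes that describe them, were named after their values were seen, as were Fkbp5, Zbtb16, Per1 and other list members given beside a count. T cell, platelet, B cell, junction, TIE and angiopoietin, hypoxia, cell cycle, clock, matrix, TGF-beta and BMP, and MHC class II lists were also counted. Alternatives were other filters on cells and counts, other gates, immunoglobulin genes left out, the replicate block, and each library left out.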

Additional observations from a re-analysis of the deposited data

Results flagged for a closer look

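The change with temperature differed between gated cells and all other cells for the 5 largest positive and 5 largest negative terms of edgeR's test. Positive terms, on the log2 scale, were 12.1 for D16Ertd472e, 10.3 for Ccl21a, 5.05 for Aqp1, 3.41 for Rbp7 and 3.26 for Ccl5. D16Ertd472e had 0 UMIs in the gated cells at 30 °C and 8 at 4 °C, so its fitted value depends on the prior count and is no bound. Negative terms were -3.50 for Rgcc, -3.17 for Rgl1, -2.42 for Pglyrp1, -2.36 for Cdkn1a and -2.35 for Plaur. With the 66 cells that had Prox1 or Mmrn1, Ccl21a, Ccl5, Pglyrp1 and Cdkn1a passed the threshold, and the other 6 did not (Rgl1 at -2.76 with adjusted p = 0.0617, Plaur at -2.13 with adjusted p = 0.0849). Against stromal cells, the term was 4.26 for Fabp4.

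Ccl21a also appeared in cells that the filters had removed. In 30 °C replicate 1 these held 229 UMIs, all in cells with 5000 genes or more, against 1 UMI in the gated cells of that library. In 4 °C replicate 1 removed cells held 155 UMIs.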

How the results depend on the processing

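No fold change of the 14 genes, Fkbp5 and Enc1 changed sign under any setting in which it could be fitted, which leaves out Ccl21a without each gene's top cell, and Bmp2 without Glycam1 cells and in the stricter gate. In the gate, edgeR's count of 0 became 110 with no filter on low counts, 5 with DESeq2, 4 with at least 10 UMIs, 3 with Mmrn1 required, 2 with other lymphatic genes in the rule, 2 with no upper limit on genes and 14 with Prox1 or Mmrn1 required. It stayed 0 with library totals, a mitochondrial limit of 15%, a stricter gate, without Scrublet's doublets and without immunoglobulin genes. Leaving out 1 library gave 0 to 315 genes, with 154 without 4 °C replicate 1, 315 without 4 °C replicate 2 and 3 without 30 °C replicate 1, where a lone library was assumed to vary like the other group. In the 66 cells the count of 14 became 4 with DESeq2, 71 with no filter, 6 without each gene's top cell and 0 without Glycam1 cells, and leaving out 1 library gave 0 (without 30 °C replicate 2) to 128, with 77 without 4 °C replicate 2. The adjusted p of Adamts1 ranged there from 2.29e-15 to 0.9999. The terms against all other cells were 36, 22 with Mmrn1 required and 11 with Prox1 or Mmrn1 required, and leaving out 1 library gave 10 (without 30 °C replicate 2) to 157 (without 4 °C replicate 2), with 11 without 30 °C replicate 1. Against stromal cells the count of 1 became 45 with at least 10 UMIs, 0 with Mmrn1 required and 5 with Prox1 or Mmrn1 required, and 9 to 115 with 1 library left out. The difference in the share of gated cells was -0.344 to -0.156 percentage points with 1 library left out, and the share with Chat changed by -8.55 to 8.12. The causes were not tested.

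The replicate numbers are shared by the labels only, and same-numbered libraries did not deviate together (correlation -0.32 in the gate and -0.097 in the 66 cells). With a replicate block, 1 gene passed in the gate and 29 in the 66 cells. With the numbers crossed, a pairing chosen after seeing the data, 1 gene passed in the gate. Requiring Prox1 or Mmrn1, leaving out Glycam1 cells and leaving out the top cell were also chosen after seeing the data.

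With 11 to 30 gated cells per library, genes with few UMIs could not be tested, and a gene was often carried by single cells.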

Other observations

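Lists that the comparisons above do not use gave few members with an unadjusted p under 0.05 in the 66 cells, and 0 past the threshold in edgeR's test except Bmp2. Over all genes tested there 3.58% were higher and 5.96% lower at that level, so single members of the longer lists are near that share. Of 18 junction genes 13 were tested and Jup, which encodes plakoglobin, was lower (-1.03 on the log2 scale). Of 19 TGF-beta and BMP genes 12 were tested, with Bmp2 higher and Bmpr2, a BMP receptor, lower (-0.81). Of 16 clock genes 7 were tested and Per1 was lower, and Dbp was higher (1.99) in the 76 cells. Of 14 hypoxia and glycolysis genes 6 were tested, all with a fold change below 0 (median -0.55) and 0 with an unadjusted p under 0.05. Matrix (11 tested of 18), TIE and angiopoietin (4 of 6) and MHC class II genes (4 of 7) also gave 0, as did cell cycle (2 of 12) and B cell genes (3 of 8). Of 18 endothelial genes 16 were tested and Cavin2 was lower (-1.07, edgeR adjusted p = 0.0730), whereas in the 76 cells it was at -0.33 with overlap. Of 15 lymph node zone genes 6 were tested and Btnl9 was lower (-1.93), against -0.57 with overlapping groups in the 76 cells. Of 5 high endothelial venule genes 3 were tested, with Glycam1 and Madcam1 higher (1.95 and 1.32), Glycam1 with overlapping groups (681, 106, 599 and 2368 CPM), and the 1 acetylcholine gene tested, the choline transporter-like gene Slc44a2, was lower (-1.91). No T cell, mural, mesothelial, adipocyte or red cell gene was abundant enough to be tested there, and of the platelet list 6 of 8 genes were at 0.

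The chemokine receptor and growth factor genes of these cells included Csf1, the growth factor of macrophages, at 149 and 312 CPM at 30 °C and at 417 and 569 CPM at 4 °C in the 66 cells. Its log2 fold change was 1.17 (edgeR adjusted p = 0.271). Il7, the lymphocyte survival factor, was found in 27 gated cells, all of them among the 66, at 50.3 CPM against 0.389 CPM in the other cells. S1pr1 was found in 72 gated cells. Stab2, a scavenger receptor of sinusoidal endothelium, was found in 28 cells, and 7 of these also had Lyve1.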
